A study of Mus musculus with 2 samples.

Results

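The Scnn1b Slc6a2 stroma is a set of 969 stromal cells of the Mettl14 f/f mouse uterus on gestational day 4. They were taken from 4122 f/f stromal cells and from 7610 f/f barcodes that passed the filters. Over both libraries of the study 13935 barcodes passed. A barcode is the tag that marks 1 droplet, read here as 1 cell, and a unique molecular identifier (UMI) marks 1 captured RNA molecule. A barcode passed with 1000 or more UMIs, 500 or more genes and no more than 20% of its UMIs from mitochondrial genes. A cell counted as stroma when at least 3 of Pdgfra, Dcn, Hand2, Hoxa10, Hoxa11 and Islr had a UMI and none of Epcam, Pecam1, Ptprc and Myh11 did. It was a member when at least 2 of Scnn1b, Slc6a2, Hsd11b2, Stra6 and Map2 had a UMI, and when that number exceeded both the number of Angptl7, Fst, Hhip, Vit and Maob and the number of Nog, Lef1, Col7a1, Cpxm2 and Nkd2. The same rule with the roles exchanged gave 1899 cells of Angptl7 stroma and 146 of Nog stroma, and left 1108 stromal cells in no set.

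The endometrial stroma is the connective tissue between the uterine epithelium and the muscle wall. Around implantation its fibroblasts respond to progesterone and oestrogen, signal to the epithelium, and then decidualize, which means that they divide and turn into the secretory cells that surround the embryo. The 5 genes of the rule come from separate pathways. Scnn1b encodes the beta subunit of the epithelial sodium channel, which takes up sodium and with it fluid. Slc6a2 encodes the transporter that clears noradrenaline, Hsd11b2 the dehydrogenase that inactivates glucocorticoids, Stra6 the receptor through which cells take up retinol, and Map2 a protein that binds microtubules and is best known from neurons.

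The study sequenced dissociated whole uterus from Mettl14 f/f mice, whose alleles carry the recombination sites, and from Mettl14 d/d mice, whose alleles are deleted. Mettl14 encodes a subunit of the enzyme complex that writes N6-methyladenosine (m6A) into RNA. Each genotype is 1 library, the tissue and gestational day 4 are shared, and the Cre driver, the deleted exons and the number of animals per library are not given in the sources used here. No p-value is therefore given. All intervals are 95% intervals for counting error only, and a difference between the genotypes cannot be told apart from a difference between the libraries.

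The f/f library held 8164 barcodes and 55080123 UMIs and the d/d library 6661 barcodes and 44745031 UMIs. Both share 8 barcodes, of which 1 is a member. Stroma made up 54.2% of the passing f/f barcodes and 22.4% of the passing d/d barcodes. Levels below are UMIs of a gene summed over the cells of a group, divided by the group's UMI total and scaled to a common total, the unit known as CPM. The members summed to 7750063 UMIs, with a median of 7409 UMIs and 2593 genes per cell, against 6371 UMIs in Angptl7 stroma, 7136 in Nog stroma and 6309 in stroma of no set.

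The members made up 23.5% of f/f stroma (Clopper-Pearson interval 22.2 to 24.8%). The values of the 5 genes chose the cells and are given as a description. Scnn1b stood at 80.1 CPM in the members, 8.42 CPM in Angptl7 stroma, 25.7 CPM in Nog stroma and 31.3 CPM in stroma of no set. Slc6a2 stood at 172, 40.4, 122 and 93.9 CPM in the same order, Stra6 at 153, 45.5, 78.0 and 85.8 CPM, and Map2 at 261, 114, 188 and 187 CPM. Hsd11b2 was the most abundant and the flattest, with 986 CPM in the members against 680, 832 and 780 CPM. It was detected in 87.2% of the other stromal cells, so it separated few cells from the rest.

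**Figure D1:**
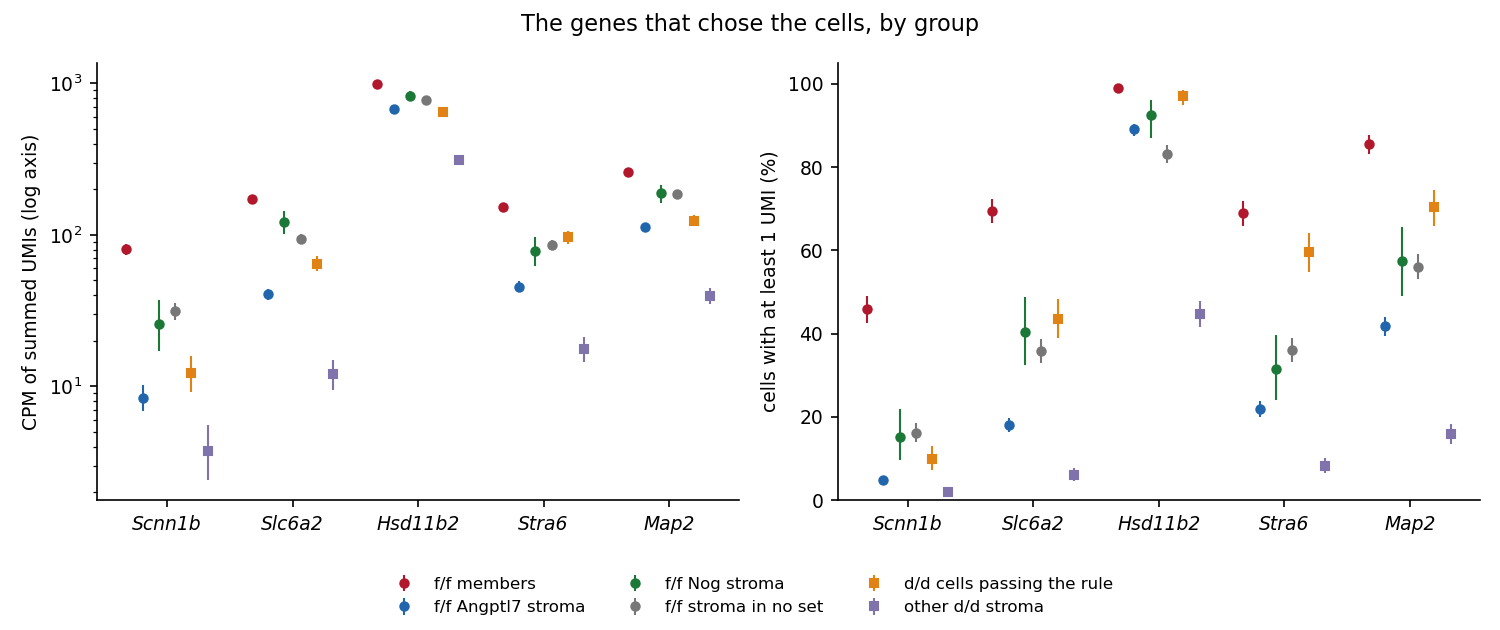
Levels of the 5 genes of the rule as CPM of summed UMIs (left, log axis) and as the percentage of cells with at least 1 UMI (right), for 4 groups of f/f stroma (circles) and 2 of d/d stroma (squares). Bars are exact 95% counting intervals; the members lead in each gene by construction, and Hsd11b2 is high in each f/f group.

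Scnn1b was the gene that the fewest members carried. A UMI was found for Scnn1b in 45.8% of members, for Stra6 in 68.9%, for Slc6a2 in 69.5%, for Map2 in 85.6% and for Hsd11b2 in 99.0%. With 872 members thinned to 4000 UMIs each, the percentages were 25.6, 45.5, 48.5, 65.4 and 94.7. Of the members, 118 carried 2 of the genes, 272 carried 3, 374 carried 4 and 205 carried 5, and their median depth went from 5058 UMIs with 2 genes to 9734 UMIs with 5. The commonest combination, Slc6a2, Hsd11b2, Stra6 and Map2 without Scnn1b, was found in 207 members, as often as all 5 genes together (205). Scnn1b and Slc6a2, the 2 genes that name the set, were found together in 316 members (32.6%).

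The levels on both sides of the rule's threshold follow from the choice and are given as a description. The 594 members that led by 1 gene held 67.1 CPM of Scnn1b and 147 CPM of Slc6a2, and the 375 that led by 2 or more held 101 and 212 CPM. The 779 cells just outside, with at least 2 of the genes but a tie with another set, held 37.5 and 113 CPM. A further 1280 cells with at least 2 of the genes but fewer than of another set held 13.7 and 64.5 CPM.

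Cells of other gates are given for comparison, and whether their UMIs come from free RNA in the droplets was not tested. Scnn1b had a UMI in 1.43% of f/f cells gated as epithelium, in 1.29% of endothelium, in 1.03% of immune cells and in 0.246% of muscle, at median depths of 9313, 5293, 2546 and 4121 UMIs. Hsd11b2 had a UMI in 16.3 to 29.8% of the cells of these 4 gates. Map2 had a UMI in 29.5% of endothelial cells (59.7 CPM). Of the stromal markers, Hoxa10, a positional factor of the uterus, had a UMI in 97.9% of the members, Pdgfra in 96.1% and Dcn in 95.9%. These are the genes of the stromal gate and describe the choice.

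Each of the 5 genes was also measured with that gene left out of the choice. The lead over the Angptl7 and Nog genes was still required. The genes of the rule were also picked with earlier results of these data known. The values therefore describe the set and are no test of it. Among f/f stroma chosen by the other 4 genes, Scnn1b was 1.86 times as high as in the rest (interval 1.62 to 2.14), Slc6a2 1.68 times (1.53 to 1.83), Stra6 1.52 times (1.38 to 1.67), Map2 1.42 times (1.32 to 1.53) and Hsd11b2 1.38 times (1.33 to 1.43). Under the full rule Scnn1b stood at 80.1 CPM in the members against 17.2 CPM in all other f/f stroma, and Hsd11b2 at 986 against 722 CPM.

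On the reference annotation of GRCm38 (mm10), Scnn1b lies on chromosome 7 from 121865038 to 121918514, Slc6a2 on chromosome 8 from 92960079 to 93001667 and Hsd11b2 on chromosome 8 from 105518755 to 105523988. Stra6 lies on chromosome 9 from 58063788 to 58153996 and Map2 on chromosome 1 from 66175273 to 66442583. All 5 are on the plus strand.

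Against the other 3153 stromal cells of the f/f uterus, 162 of 10752 genes were at least 1.5-fold higher in the members (1.51%) and 447 were at least 1.5-fold lower (4.16%). Genes with at least 100 UMIs over both groups were counted, and the 25 genes of the rule and the gates were left out. The median log2 fold over all counted genes was 0.00. Since other genes vary with the chosen 5 in the same cells, these differences describe the set and are no test of it.

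Grin2b, a subunit of the NMDA type of glutamate receptor, stood first, with 24.4 CPM in the members, 6.55 CPM in the other stroma, and a log2 fold of 1.90 (1.58 to 2.22). It was found in 14.0% of members and in 3.6% of the other cells, and its level in the epithelial gate was 15.4 CPM. Serinc2, of the serine incorporator family, stood at 24.9 against 8.21 CPM (log2 fold 1.60, 1.30 to 1.90). Pth1r, the receptor for parathyroid hormone and its related peptide, had 133 against 62.9 CPM (1.08, 0.96 to 1.20). Ednrb, an endothelin receptor, had 83.4 against 46.9 CPM (0.83, 0.68 to 0.97).

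Among secreted factors, Bmp7 stood at 89.4 against 47.5 CPM, Wnt16 at 20.9 against 10.8 CPM, and Pappa, the protease that frees insulin-like growth factor from its binding proteins, at 24.4 against 11.4 CPM. Of matrix genes, Lamc3, a laminin chain, had 56.0 against 26.8 CPM, Col22a1 27.9 against 12.7 CPM, and Tnc, which encodes tenascin C, 25.4 against 12.4 CPM. Gja1, the main connexin of decidualizing stroma, stood at 178 against 102 CPM. Gatm, the first enzyme of creatine synthesis, had 58.1 against 27.4 CPM. The transcription factors Prdm1 (148 against 86.9 CPM) and Tcf7 (33.0 against 17.1 CPM), the latter a partner of beta-catenin, were higher as well. The remaining genes among the leading 20 were Tex15, Cpne5, Ociad2, Scube1, Tgfbi and Ntm, with log2 folds of 0.92 to 1.21.

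By CPM the members did not mark the upper end of most of these genes. In 17 of 20 they were below Nog stroma, a count of CPM values without regard to their intervals. Only Tnc of the 20 was also among the 12 leading genes that were lower in the members than in Nog stroma. The 1127494 UMIs of Nog stroma limit its precision, and the share of all genes below it was not counted. In all 20 the members were above Angptl7 stroma and above stroma of no set. These groups make up most of the other stroma, so a place above them follows largely from the ranking. Gatm ran from 13.7 CPM in Angptl7 stroma through 58.1 CPM in the members to 98.4 CPM in Nog stroma, and Prdm1 from 60.8 through 148 to 271 CPM. Grin2b, Lamc3 and Col22a1 were the 3 genes highest in the members.

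**Figure D2:**
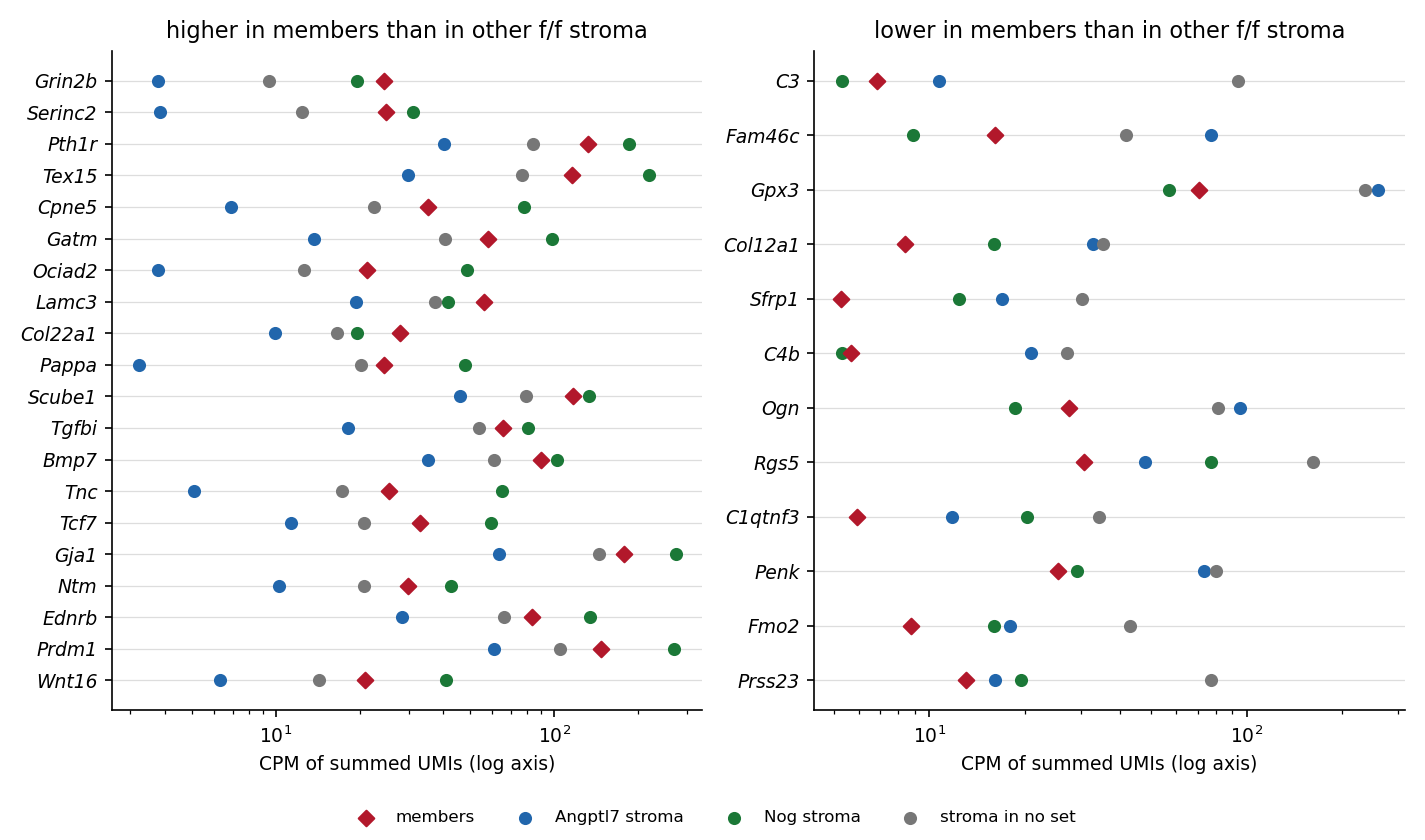
CPM of summed UMIs (log axis) for the 20 leading genes that were higher in the members (left) and the 12 leading genes that were lower (right), in the members (diamonds) and in 3 other groups of f/f stroma (circles). On the left the members lie between Angptl7 and Nog stroma in 17 of 20 genes. On the right they lie below Angptl7 stroma and stroma of no set in each gene, which follows largely from the ranking.

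Of the 12 leading genes that were lower in the members, C3, the central complement protein, stood at 6.84 CPM in the members and 39.2 CPM in the other stroma (log2 fold -2.52, -2.95 to -2.12), and C4b at 5.68 against 22.3 CPM. Gpx3, a secreted glutathione peroxidase, had 71.0 against 241 CPM (-1.76, -1.89 to -1.63). Col12a1 had 8.39 against 32.8 CPM, Ogn, a small matrix proteoglycan, 27.6 against 86.6 CPM, and Sfrp1, a secreted Wnt antagonist, 5.29 against 21.4 CPM. Penk, the precursor of enkephalins, had 25.4 against 73.4 CPM.

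Some of these differences were smaller without a small group of other stromal cells. In a clustering of f/f stroma made without the genes of the rule and the gates, cluster 4 was led by C3, Clec3b and Ces2g and held 314 cells but only 22 members. Without it the log2 fold was -0.50 for C3, -0.64 for C1qtnf3, -0.64 for Fmo2 and -0.40 for Prss23. The log2 fold of Pappa was larger without it, 1.46 against 1.09. Rgs5, a gene of pericytes, stood at 30.7 against 88.7 CPM (-1.53), and at -0.09 without clusters 6 to 9, which were led by immune, pericyte, endothelial and interferon genes and held 15 members. The summed level of the 6 pericyte markers was 46.6 CPM in the members (41.9 to 51.6) and 122 CPM in the other stroma (118 to 127). The 5 immune markers summed to 51.7 and 71.7 CPM, the 5 endothelial markers to 174 and 173 CPM, and the 5 smooth muscle markers to 233 and 250 CPM.

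The counts over gene lists that follow stand beside 1.51% higher and 4.16% lower over all genes. In lists this short 0 to 2 calls can exceed these shares, but they are too few to be a result about the list. Of 13 measured genes of sodium and fluid transport, 0 were at least 1.5-fold higher in the members and 4 were lower, with a median log2 fold of -0.20. Sgk1, the kinase that raises sodium channel activity under aldosterone, stood at 10.2 CPM against 18.5 CPM in the other stroma. Scnn1a and Scnn1g, which encode the other subunits of the channel, did not reach the 100 UMIs. Of 11 genes of corticosteroid signalling 0 were higher and 2 were lower, among them Fkbp5, a target of the glucocorticoid receptor, at 3.87 against 9.64 CPM. Nr3c1, the glucocorticoid receptor itself, had 52.0 against 60.9 CPM.

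Of 14 genes of retinoid handling 1 was higher and 4 were lower, and without cluster 4 it was 0 and 2 of 13. Crabp1, which binds retinoic acid in the cell, stood at 21.9 against 14.0 CPM, Dhrs3, which turns retinal back to retinol, at 5.03 against 11.02 CPM, and Aldh1a2, the enzyme that makes retinoic acid, at 162 against 148 CPM. Of catecholamine genes only 3 were measured, of which 0 passed 1.5-fold, and 1 was higher without cluster 4. Maoa, which degrades noradrenaline, had 79.1 against 64.8 CPM, within 1.5-fold. In the list of the microtubule and neuronal cytoskeleton, 1 of 13 genes was higher, Map7 at 5.29 against 3.09 CPM, and 0 were lower. Without clusters 6 to 9, 2 were higher.

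Of 13 sex steroid receptors and cofactors 0 passed 1.5-fold in either direction. Esr1, the oestrogen receptor, stood at 274 CPM in the members and 255 CPM in the other stroma, Pgr, the progesterone receptor, at 262 and 263 CPM. Of 16 genes of the hedgehog and progesterone response 2 were higher, Bmp2 (14.3 against 8.81 CPM) and Il13ra2 (41.2 against 25.3 CPM), and 2 were lower, the hedgehog coreceptors Boc and Cdon (1 lower without cluster 4). Ptch1, the hedgehog receptor and target, had 400 against 345 CPM. Of 20 measured Hox and positional genes 0 were higher and 2 were lower, Meis1 (32.5 against 50.8 CPM) and Tcf21 (36.1 against 57.0 CPM). Without cluster 4, 0 of 19 were lower.

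Of 27 measured genes of the Wnt list 6 were higher in the members. They comprised the ligands Wnt6 (13.3 against 7.33 CPM) and Wnt16, the feedback targets Axin2 (37.4 against 24.1 CPM), Nkd1 (17.4 against 11.6 CPM) and Apcdd1 (6.97 against 2.95 CPM), and Tcf7. The 4 that were lower were the secreted antagonists Sfrp1 and Sfrp4 (44.9 against 113 CPM) and the agonists Rspo1 and Rspo3. The list median was 0.02.

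Decidualization genes were mixed too: 6 of 18 were higher and 2 were lower, with a median of -0.09. Bmp2, Wnt6, Gja1, Gatm, Ccnd1 (51.6 against 32.3 CPM), which drives entry into the cell cycle, and Ptx3 were higher. Cryab and Tdo2 were lower, and Tdo2, the tryptophan dioxygenase of decidual cells, was sparse at 2.06 against 6.78 CPM. Of 10 measured genes in a list of growth factors to the epithelium and their receptors 0 were higher and 5 were lower, the factors Fgf2, Fgf7, Kitl and Ctgf and the receptor Fgfr1, with a list median of -0.61. Without cluster 4, 4 of 10 were lower, with a median of -0.49. Against Nog stroma alone only 3 genes of this list were measured, and 0 passed 1.5-fold in either direction. Igf1, the most abundant of the 10, stood at 1988 CPM in the members and 2055 CPM in the other stroma.

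The list of matrix genes had the most genes measured and the most that were lower. Of 42 measured genes of fibrillar and other matrix 21 were at least 1.5-fold lower and 2 were higher, with a median of -0.58. Col1a1 stood at 1622 against 3013 CPM, Col1a2 at 1341 against 2555 CPM, Col3a1 at 2687 against 4133 CPM and Sparc, a collagen-binding glycoprotein, at 954 against 1987 CPM. Lox, which crosslinks collagen, had 29.9 against 76.4 CPM. The 2 that were higher were Tnc and Col26a1 (19.1 against 8.11 CPM). Without cluster 4, 13 of 42 matrix genes were lower, with a median of -0.40. Against Nog stroma alone 7 of 40 matrix genes were higher and 6 were lower, with a median of 0.01. The shares over all genes were 3.95% and 3.88% in that comparison. Of 15 basement membrane genes 1 was higher, Lamc3, and 1 was lower, Lama4, and 2 were higher without cluster 4 or without clusters 6 to 9.

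Markers of adventitial fibroblasts, the fibroblasts around vessels, had the lowest median among the lists of stromal functions. Of 17 measured markers 10 were lower and 0 were higher, with a median of -0.82. Ly6a stood at 177 against 423 CPM, Clec3b at 2.45 against 13.1 CPM and Gsn, an actin-severing protein, at 309 against 545 CPM. Without cluster 4, 5 of 14 were lower and the median was -0.43. Complement and defence genes gave 6 lower and 1 higher of 15, and chemokines and cytokines 6 lower and 2 higher of 13, with medians of -0.50 and -0.44. Without cluster 4 the counts were 5 lower of 14 and 3 lower of 10, with medians of -0.19 and -0.14. Cxcl12, which attracts leukocytes through Cxcr4, stood at 90.1 against 195 CPM, while Cxcl14 (93.0 against 56.2 CPM) and Cx3cl1 (13.7 against 7.65 CPM) were higher.

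Immediate early and heat shock genes, which respond fast to stimuli including tissue dissociation, were lower in 9 of 21 and higher in 0, with a median of -0.57. Without cluster 4, 4 of 21 were lower, with a median of -0.47. Fos stood at 211 CPM in the members against 346 CPM and Dusp1 at 56.9 against 114 CPM. Summed over the 21 genes the level was 2716 CPM in the members, 2788 CPM in Nog stroma, 3915 CPM in Angptl7 stroma and 4215 CPM in stroma of no set. The part of this gradient in the other differences was not tested.

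Genes of axon guidance and neurotrophic signalling went both ways, with 5 higher and 7 lower of 28. The receptors Robo1 (83.5 against 49.7 CPM) and Robo2 (95.9 against 62.4 CPM) were higher and their ligand Slit3 was lower (16 against 44.9 CPM). Of 26 genes of G protein and cyclic nucleotide signalling 4 were higher and 4 were lower, and 2 were lower without clusters 6 to 9. Rxfp1, the relaxin receptor, stood at 166 against 101 CPM and Ramp3, a partner of the calcitonin receptor family, at 33.3 against 19.2 CPM. Ramp1 was lower at 135 against 219 CPM. Of 21 vascular signals 3 were higher, Vegfc, Angpt2 and Ednrb, and 7 were lower, Ednra among them (19.2 against 34.7 CPM).

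Proliferation genes did not set the members apart from the other stroma as a whole. Of 24 such genes 0 passed 1.5-fold in either direction in that comparison. Against Angptl7 stroma alone 3 of 24 were higher and 0 were lower, with a median of -0.18. Against Nog stroma alone 0 of 21 were higher and 5 were lower, with a median of -0.23. Hist1h2ae (30.3 against 93.1 CPM) and Hist1h2ap (60.8 against 164 CPM) were among the 12 leading genes that were lower than in Nog stroma. Mki67 or Top2a, which mark cycling cells, had a UMI in 17.8% of members (15.4 to 20.3%) and in 14.1% of the other stroma (12.9 to 15.3%). At 4000 UMIs per cell the percentages were 11.8 and 10.9. None of the 17 measured genes of the m6A machinery passed 1.5-fold in either direction, and Mettl14 stood at 12.6 CPM in the members and 15.6 CPM in the other stroma.

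**Figure D3:**
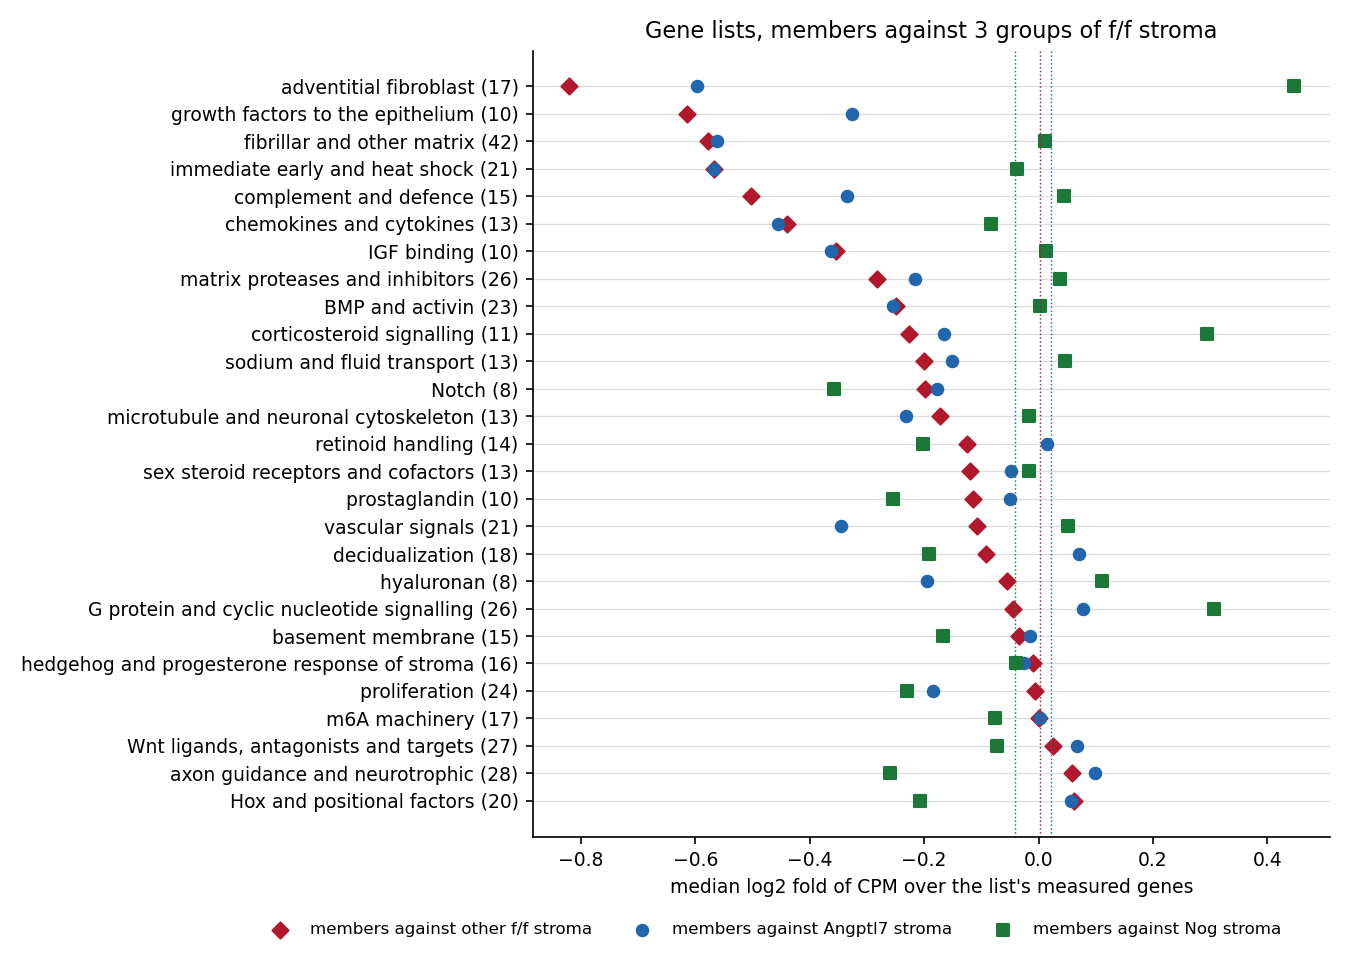
Median log2 fold of CPM over the measured genes of each list, for members against all other f/f stroma (diamonds), Angptl7 stroma (circles) and Nog stroma (squares); the number after each name counts the genes measured in the first comparison, points over fewer than 5 genes are left out, and dotted lines are the medians over all genes. The adventitial list lies at -0.82 and -0.60 against the first 2 groups and at 0.45 against Nog stroma.

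Against Angptl7 stroma alone, 277 of 10146 genes were at least 1.5-fold higher in the members (2.73%) and 415 were lower (4.09%). Pappa stood at 24.4 CPM in the members and 3.22 CPM in Angptl7 stroma (log2 fold 2.92, 2.43 to 3.44), Serinc2 at 24.9 and 3.83 CPM (2.70, 2.25 to 3.18) and Tnc at 25.4 and 5.05 CPM (2.33, 1.92 to 2.76). Ramp3 (1.71) and Ednrb (1.56) were also among the 12 leading genes. In the other direction Fam46c, a poly(A) polymerase, stood at 16.1 against 77.1 CPM (-2.26, -2.54 to -1.99), and Ly6a at 177 against 515 CPM (-1.54, -1.62 to -1.46). Ctla2a, which encodes a cysteine protease inhibitor, was the most abundant gene on this side, at 1854 against 4673 CPM (-1.33). Wnt genes were higher in 9 and lower in 4 of 26, and decidualization genes higher in 7 and lower in 3 of 16. Matrix genes were lower in 21 and higher in 4 of 42.

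Against Nog stroma, 321 of 8117 genes were higher in the members (3.95%) and 315 were lower (3.88%). Of all called genes 50.5% were higher, 61.3% when mitochondrial and ribosomal protein genes were left out of the total, and 69.8% under TMM scaling, so the balance of directions rests on the scaling. Nog stroma has 1127494 UMIs from 146 cells, which limits its precision. Dkk2, a secreted Wnt antagonist, was the leading gene that was lower in the members, at 7.61 against 55.0 CPM (log2 fold -2.85, -3.39 to -2.31). Mgp, matrix Gla protein, stood at 449 against 1055 CPM (-1.23, -1.33 to -1.14), Rxfp1 at 166 against 361 CPM (-1.12) and Tnc at 25.4 against 64.7 CPM (-1.35). Rgs5 at 30.7 against 77.2 CPM turned to a log2 fold of 0.53 without clusters 6 to 9.

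Higher in the members than in Nog stroma were Steap4, a metalloreductase (102.5 against 35.5 CPM, 1.53, 1.07 to 2.03), and Ebf1, a transcription factor of mesenchymal and B cell lineages (449 against 224 CPM, 1.01, 0.82 to 1.20). Ly6a (177 against 79.8 CPM), Scara5 (51.0 against 19.5 CPM) and Adamts1 (147 against 72.7 CPM) were too. Ly6a thus stood lower in the members than in Angptl7 stroma and higher than in Nog stroma, and Tnc and Rxfp1 stood the other way round. Of 20 Wnt genes 2 were higher and 8 were lower than in Nog stroma, of 12 decidualization genes 1 was higher and 4 were lower, and of 13 adventitial markers 4 were higher and 0 were lower. Of 10 complement and defence genes 0 passed 1.5-fold in either direction.

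The members did not form 1 cluster when their defining genes were left out of the clustering. Cluster 1, led by Grin2b, Col22a1, Lamc3 and Serinc2, held 44.2% of members, and 44.9% of its 953 cells were members. Cluster 3, led by Tnc, Prom1, Apcdd1 and Lipg, held 20.02% of members together with 63.7% of Nog stroma, and 47.9% of its 405 cells were members. A further 12.6% of members lay in cluster 0, which held 61.1% of Angptl7 stroma, 10.7% in cluster 2 and 8.67% in the mitotic cluster 5. At a finer resolution of 1 another cluster led, which held 32.3% of members together with 72.6% of Nog stroma and 0.895% of Angptl7 stroma.

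**Figure D4:**
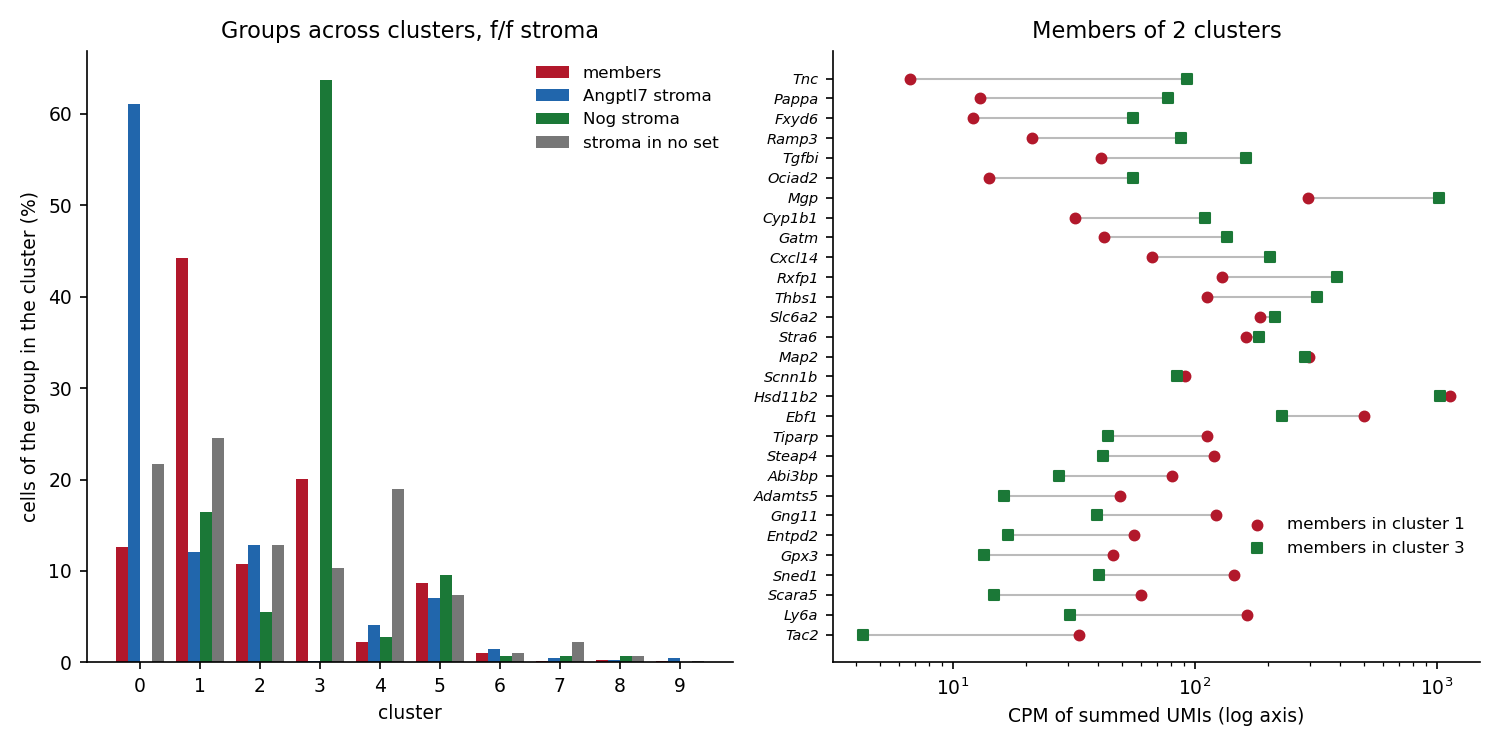
Left, percentage of each f/f stromal group found in each cluster of a clustering made without the genes of the rule and the gates. Right, CPM of summed UMIs (log axis) in the members of cluster 1 (circles) and cluster 3 (squares) for genes that differ between them and for the 5 genes of the rule, which chose the cells; Tnc lies at 6.63 and 93.3 CPM.

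The members of clusters 1 and 3 were chosen for the same 5 genes, and the levels of these describe the choice. Scnn1b stood at 91.1 CPM in the 428 members of cluster 1 and 84.8 CPM in the 194 members of cluster 3, Hsd11b2 at 1139 and 1036 CPM, and Map2 at 295 and 285 CPM. Of 6086 genes 289 were at least 1.5-fold higher in cluster 3 (4.75%) and 147 were lower (2.42%), which in part follows from the clustering itself. Tnc stood at 93.3 against 6.63 CPM, Pappa at 77.8 against 13.0 CPM, Tgfbi, a secreted matrix protein, at 163 against 40.9 CPM and Rxfp1 at 386 against 130 CPM. Gatm had 136 against 42.1 CPM and Mgp 1025 against 295 CPM. The Wnt feedback genes Axin2 (81.3 against 25.7 CPM) and Nkd1 (40.3 against 13.0 CPM) and the connexin gene Gja1 (322 against 160 CPM) lay on the same side.

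In cluster 1 the other side of the contrast was high. Ly6a stood at 165 CPM in members of cluster 1 and 30.4 CPM in members of cluster 3, Ebf1 at 501 and 230 CPM, Scara5 at 60.2 and 14.8 CPM, and Tac2, which encodes neurokinin B, at 33.1 and 4.24 CPM. Among the genes of the other sets, Angptl7 stood at 115 and 27.6 CPM and Nog at 22.5 and 67.1 CPM. Grin2b stood at 34.0 CPM in members of cluster 1 and 22.6 CPM in members of cluster 3.

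Within clusters the calls were fewer. In cluster 1, 38 of 7473 genes were at least 1.5-fold higher in members than in the other cells (0.508%) and 47 were lower (0.629%). In cluster 3, 33 of 4248 were higher (0.777%) and 34 were lower (0.8%). Serinc2 stood at 30.0 CPM in members and 16.1 CPM in the other cells of cluster 1, and Gpx3 at 46.1 and 89.8 CPM. Pth1r stood at 130 and 92.9 CPM, within 1.5-fold. Scnn1b stood at 91.1 and 30.9 CPM there, by choice of the cells. In cluster 3 Dkk2 stood at 19.8 CPM in members and 52.4 CPM in the other cells.

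The members were also split by how many of the 5 genes they carried, which is a split by the rule itself and is given as a description. Grin2b went from 15.8 CPM in members with 2 genes to 22.8 CPM with 3 and 25.8 CPM with 4 or 5, Serinc2 from 10.5 to 24.5 and 26.5 CPM, and Bmp7 from 54.4 to 73.5 and 98.3 CPM. Gpx3 went from 147 to 68.4 and 63.8 CPM and C3 from 21.0 to 7.97 and 4.98 CPM. Rxfp1 was flat at 163, 165 and 166 CPM. Depth went along with the number of genes, as given above, and its part was not tested.

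Across 8 f/f groups, the 4 stromal groups and the gates for epithelium, endothelium, immune cells and muscle, the genes most like the mean of the 5 rule genes were Gpatch4 (Pearson r 0.991 on log2(CPM + 1)), Gap43 (0.985), Lrrc3 (0.984), Tmem132c, 2600014E21Rik (both 0.983), Aspg (0.982), Gdf7 (0.981) and Cbr3 (0.978). The groups come from 1 library and differ in depth, and the 4 stromal groups stand against the 4 gates in each of these genes. Tmem132c stood at 155 CPM in the members, 83.2 CPM in Angptl7 stroma and 204 CPM in Nog stroma, and Gap43, a growth cone protein of neurons, at 71.6, 48.1 and 53.2 CPM.

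In the d/d library 441 of 1414 stromal cells passed the same rule. That is 31.2% of d/d stroma (28.8 to 33.7%) against 23.5% of f/f stroma, but 6.97% of passing d/d barcodes against 12.7% of f/f. These d/d cells had a median of 10455 UMIs, against 7409 UMIs in the f/f members. Among cells of 5000 to 15000 UMIs the shares were 38.2% and 25.5%. With at least 3 of the 5 genes required they were 19.2% and 20.6%, so the direction of the difference rests on the cutoff. Angptl7 stroma made up 12.2% of d/d stroma and 46.1% of f/f stroma, and 53.7% of d/d stroma was in no set, against 26.9% of f/f stroma. Of the 441 d/d cells that passed, 169 carried only 2 of the 5 genes, against 118 of the 969 f/f members. Among stromal cells with exactly 2 of the genes, 169 of 302 passed in d/d and 118 of 1210 in f/f. The comparison of these cells between the libraries below thus sets cells with fewer of the genes beside cells with more.

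The 5 genes themselves were lower in d/d stroma. Summed over all stroma, Scnn1b had 33.8 CPM (f/f) and 7.30 CPM (d/d), Slc6a2 at 91.7 and 34.3 CPM, Stra6 at 85.3 and 50.8 CPM, Map2 at 174 and 75.1 CPM and Hsd11b2 at 792 and 456 CPM. In the d/d cells that passed the rule Scnn1b was at 12.2 CPM, below the 17.2 CPM of f/f stroma outside the set. Chosen by the other 4 genes, d/d stroma held 1.16 times as much Scnn1b as the rest, with an interval of 0.726 to 1.84, while Slc6a2 was 1.96 times as high (1.60 to 2.42) and Stra6 1.91 times (1.61 to 2.26). A difference in Scnn1b within d/d stroma was thus not detectable at this depth.

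Mettl14 was low in the d/d cells that passed the rule, at 2.77 CPM against 12.6 CPM in the f/f members, and at 2.50 CPM in the other d/d stroma. Between these d/d and f/f cells 1131 of 9030 genes were at least 1.5-fold higher in d/d (12.5%) and 1808 were lower (20%), with a median log2 fold over all genes of -0.16. Of the called genes 38.5% were higher, and 50.3% under TMM scaling, which put the median at -0.05. Values below are to be read against that shift.

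Among the 10 leading genes that were higher in d/d, Hes1, a Notch target, stood at 527 CPM in d/d and 25.4 CPM in f/f (log2 fold 4.37, 4.16 to 4.59), Cdkn1a, an inhibitor of cyclin-dependent kinases, at 994 UMIs (212 CPM) and 93 UMIs (4.14, 3.84 to 4.47), Gadd45g at 1176 and 80.4 CPM (3.87, 3.75 to 3.99) and Gadd45b at 148 and 12.1 CPM. Itgbl1 had 42.5 and 1.03 CPM, A2m, a protease inhibitor, 183 and 11.2 CPM, and Lpl, lipoprotein lipase, 228 and 22.8 CPM. Arhgap8 had 126 UMIs in d/d and 0 in f/f.

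The rankings of genes lower in d/d and of genes higher in the f/f members use the same f/f sums. This favours an overlap, which is given as a description and is no test. The 10 leading genes that were lower in d/d included 5 of the 20 that were higher in the f/f members. Of these, Grin2b stood at 0.854 CPM in d/d and 24.4 CPM in f/f (-4.84, -6.73 to -3.46), and Serinc2 at 1 UMI against 193. Col22a1 had 3 UMIs against 216, Lamc3 4.27 against 56.0 CPM and Ednrb 4.91 against 83.4 CPM (-4.09, -4.75 to -3.49). Tac2 had 1 UMI against 202. Rgs2, which dampens G protein signals, was abundant in f/f at 1163 CPM and stood at 109 CPM in d/d (-3.42, -3.55 to -3.29). Cyp1b1, which hydroxylates oestrogens, had 2.56 against 44.9 CPM.

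For these genes the other stroma showed the same directions. For all 20 leading genes the other d/d stroma differed from the other f/f stroma by at least 1.5-fold the same way. The share over all genes was not counted for the other stroma, so the count describes these leading genes only. Hes1 stood at 661 CPM in the other d/d stroma and 57.4 CPM in the other f/f stroma, and Rgs2 at 69.5 and 1045 CPM. The difference of these differences was not tested.

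**Figure D5:**
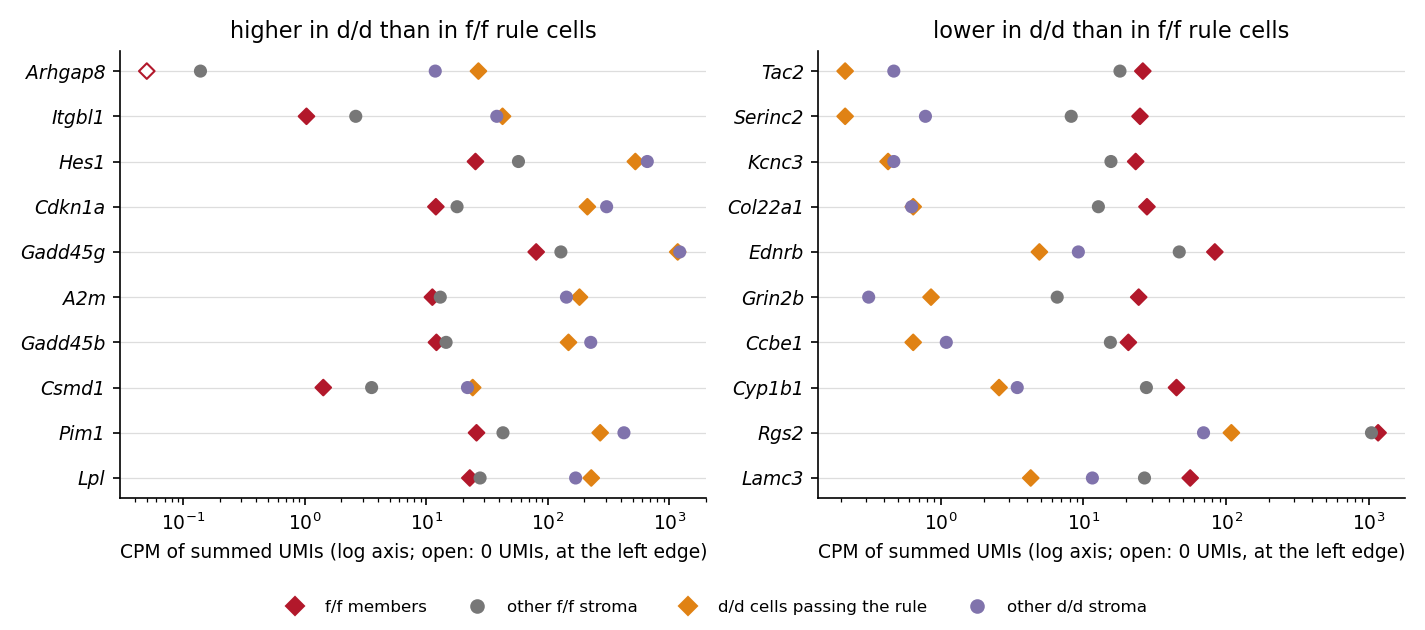
CPM of summed UMIs (log axis) for the 10 leading genes on each side between d/d and f/f cells that pass the rule (diamonds), with the other stroma of each library (circles); an open symbol at the left edge stands for 0 UMIs. In each of the 20 genes the other stroma differs between the libraries in the same direction as the cells of the rule.

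The list counts between the libraries stand beside 12.5% higher and 20% lower over all genes. By list, 19 of 21 immediate early and heat shock genes were higher in d/d and 0 were lower, with a median of 2.14. Fos stood at 1136 against 211 CPM, Egr1 at 1504 against 369 CPM and Hspa1b at 1948 against 304 CPM. The 21 genes summed to 10803 CPM in the d/d cells of the rule and 16301 CPM in the other d/d stroma, against 2716 and 3960 CPM in f/f. The part of this in the other differences was not tested, and it cannot be told apart from the genotype. Matrix genes were higher in 22 and lower in 12 of 41, chemokines higher in 7 and lower in 2 of 10, Wnt genes higher in 10 and lower in 4 of 25, and decidualization genes higher in 8 and lower in 4 of 15. Wnt5a, the abundant Wnt ligand of stroma, stood at 652 against 323 CPM, and Ccnd1 at 8.11 against 51.6 CPM. Retinoid genes were lower in 5 and higher in 1 of 10, among them Rdh10, which makes retinal from retinol, at 10.9 against 52.6 CPM.

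Within the d/d library the cells were chosen by the same rule. A direction shared with f/f thus follows in part from the choice and is no test. These cells had a median of 10455 UMIs, against 5825 UMIs in the other d/d stroma. Against the other d/d stroma 250 of 8682 genes were at least 1.5-fold higher (2.88%) and 666 were lower (7.67%). Of 26 genes named for the f/f contrast that could be measured in d/d, 23 had the same sign and 18 passed 1.5-fold the same way. Named genes too sparse in d/d to be measured are not in this count. Bmp7 stood at 45.3 against 22.2 CPM, Tex15 at 20.5 against 11.5 CPM, Wnt16 at 25.2 against 10.9 CPM, C3 at 10.0 against 235 CPM and Gpx3 at 53.6 against 319 CPM. Adventitial markers were lower in 13 of 16 and higher in 0, and immediate early genes lower in 13 of 21. Of 19 proliferation genes 13 were higher and 0 were lower. Mki67 or Top2a had a UMI in 11.3% of these cells and 4.32% of the other d/d stroma, and in 7.94% and 4.53% at 4000 UMIs per cell. Pericyte markers summed to 37.8 CPM in the cells of the rule and 309 CPM in the other d/d stroma.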

How the data were processed

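Whole mouse uterus was dissociated and sequenced as single cells from 1 Mettl14 f/f and 1 Mettl14 d/d sample. The authors deposited 1 matrix of whole UMI counts for each library, not normalized, per the file headers. Alignment was to mm10 with Cell Ranger 3.0.1 per the submitters' processing notes; version 6.0.1 stands in the headers of the matrices, and which of them made the values is not settled. No barcode held fewer than 500 UMIs. Where identifiers shared a symbol the most abundant kept it, and 36 others were kept apart.

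Counts were summed per group and divided by the group's total. Levels carry exact Poisson intervals, shares Clopper-Pearson intervals and ratios conditional exact intervals. A gene was called at 1.5-fold with at least 100 UMIs over both groups, a fold rule and no test. Named genes needed 20 CPM on the higher side and were ranked by the interval bound nearest 1: the 20 highest and 12 lowest against other f/f stroma, 12 and 12 against each other set, 10 and 10 between libraries, plus list members, 8 nearest genes and Mettl14. The members and lists were chosen with earlier results of these data known. Shares at equal depth used cells thinned to 4000 UMIs, which left out 97 members and 447 other f/f stromal cells. Clusters were made from f/f stroma with 2000 variable genes by Leiden at resolution 0.5 (scanpy 1.11.5, leidenalg 0.10.2), without the 25 genes of the rule and gates. Doublets were scored with Scrublet and kept in: 28 members (2.89%) were marked, against 6.77% of passing f/f barcodes. TMM scaling used edgeR 4.0.16. On simulated counts for members against other f/f stroma (10773 genes), intervals held the true value for 93% and 90% of genes set 2-fold higher and lower and for 95.4% of unchanged ones. The counts were drawn from the Poisson model that the intervals assume. The simulation thus checks the calculation and cannot show whether the intervals cover variation between cells. Of the unchanged genes 0.549% were called in either direction. The smaller groups within clusters were not simulated.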

Additional observations from a re-analysis of the deposited data

Results flagged for a closer look

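Tgfbi, which encodes a secreted matrix protein, lay on opposite sides of the contrast in the 2 libraries. In f/f it stood at 65.3 CPM in the members and 33.7 CPM in the other stroma, a log2 fold of 0.95 (0.79 to 1.12). In d/d it stood at 28.6 CPM in the cells that pass the rule and 70.4 CPM in the other stroma, a log2 fold of -1.30 (-1.59 to -1.02). The difference was not tested, since each genotype is 1 library. Tgfbi was also present in the f/f gates for epithelium (213 CPM) and immune cells (139 CPM).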

How the results depend on the processing

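No paired analysis was possible because each genotype is 1 library. Cells left out by cluster were chosen after seeing the data. The share of members in f/f stroma was 20.6% with at least 3 of 5 genes, 25.5% at 5000 to 15000 UMIs and 24.9% without cluster 4. The d/d share was 19.2% with at least 3 of 5 genes, 38.1% with at least 4 of 6 stromal genes and 38.2% at 5000 to 15000 UMIs. Counts of genes called follow the cutoffs by construction. With at least 20 UMIs, at least 1 UMI and a 2-fold limit, genes higher in members than in other f/f stroma numbered 464, 1856 and 24, and lower 1034, 3575 and 157. Against Angptl7 stroma they numbered 677, 2573 and 82, and lower 851, 3008 and 123. Against Nog stroma they numbered 947, 3958 and 69, and lower 1002, 2381 and 42, with 197 lower under TMM scaling. Between d/d and f/f they numbered 1841, 4117 and 490 higher and 2730, 5069 and 539 lower. At resolution 1 another cluster led and held 32.3% of members. At 2500 UMIs per cell a UMI was found for Scnn1b in 18.7%, Slc6a2 in 32.6%, Hsd11b2 in 87.6%, Stra6 in 31.9% and Map2 in 47.8% of members. Of 988 values of named genes under alternatives 957 stayed within their counting interval, 27 moved and 4 reversed. All 4 were Rgs5 against Nog stroma, whose log2 fold became 0.37 with at least 3 of 5 genes, 0.41 with at least 4 of 6 stromal genes, 0.70 at 5000 to 15000 UMIs and 0.53 without clusters 6 to 9. The cause was not tested. Nog stroma (146 cells) and genes near 20 CPM are limited by depth.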
